A study of Homo sapiens with 12 samples.

Results

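The 10 genes described here are ATF4, DDIT3, ATF3, TRIB3, PPP1R15A, SESN2, CHAC1, ASNS, PSAT1 and PHGDH, a set built around the transcription factor ATF4, genes it is known to induce under stress, and enzymes of serine and asparagine synthesis. They were taken by name from the 34643 rows of the deposited count table of LNCaP cells. All 10 had a row, and 10 of 10 passed the filter on low counts that left 15419 genes for testing. Their levels were compared over 4 groups of 3 RNA-seq libraries each, shScramble DHT-, shScramble DHT+, shTMEFF2 DHT- and shTMEFF2 DHT+.

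LNCaP is an androgen-responsive prostate cancer cell line grown from a lymph node metastasis. All cells had been transduced with lentivirus carrying the pLKO.1-puro vector, which drives an shRNA from the U6 promoter and confers puromycin resistance. The shTMEFF2 cells carried an shRNA against TMEFF2, a transmembrane protein of prostate and brain, and the shScramble cells a scrambled control. Both lines were taken about 17 days after transduction per the labels (the study's methods give a shorter time), kept for 24 h in medium with charcoal-stripped serum to deplete androgen and were then given 10 nM dihydrotestosterone (DHT+) or ethanol vehicle (DHT-) for 24 h. The 3 repeats of a group were independent treatments and RNA extractions from 2 transductions, and which repeat came from which transduction is not given in the sources used here, so the p-values measure the spread between these samples. RNA came from whole cultures, in which fewer cells with a transcript and less of it per cell cannot be told apart.

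ATF4 is the main effector of the integrated stress response. Kinases that sense amino acid shortage, unfolded protein in the endoplasmic reticulum, haem loss or viral RNA phosphorylate the translation factor eIF2, which slows protein synthesis as a whole while the ATF4 mRNA is translated more. ATF4 protein then induces genes for amino acid synthesis and transport, tRNA charging and redox balance, along with brakes on the response itself. Because much of this control acts on translation, the ATF4 mRNA level is a limited measure of ATF4 activity, and protein was not measured in these libraries.

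The targeted gene, TMEFF2, had 77.8, 73.8 and 103 CPM (counts scaled to the library total, normalised by TMM) in shScramble DHT-, 173, 117 and 169 in shScramble DHT+, 68.6, 39.3 and 81.7 in shTMEFF2 DHT-, and 142, 90.03 and 114 in shTMEFF2 DHT+. The shTMEFF2 libraries were lower on average, but their range overlapped that of shScramble with and without DHT. At each DHT level every shTMEFF2 library lay below the shScramble library of the same number. On the log2 scale shTMEFF2 differed from shScramble by -0.43 without DHT (adjusted p = 0.503) and -0.41 with DHT (adjusted p = 0.304), so knockdown of the mRNA did not pass the test in these libraries. The study reports silencing of TMEFF2 in LNCaP cells from Western blots of the protein and from mRNA levels. KLK3, the gene of prostate-specific antigen and a classical androgen target, had a log2 fold change with DHT of 1.96 in shScramble and 2.45 in shTMEFF2, and differed in shTMEFF2 from shScramble by -2.43 without DHT (adjusted p = 0.000283) and -1.94 with DHT (adjusted p = 8.28e-05). KLK3 is 1 of the 7 luminal prostate markers, which all passed the filter, with a summed level of 6338 to 6555 CPM in shScramble DHT-, 11250 to 11990 in shScramble DHT+, 4230 to 4722 in shTMEFF2 DHT- and 4964 to 5856 in shTMEFF2 DHT+. The 10 markers of other cell types summed to 43.7 to 52.5, 37.5 to 39.7, 56.9 to 63.04 and 46.4 to 56.7 CPM in the same order, with 6 of them under a mean of 1 CPM and the basal keratin KRT5 at 0 in every library. These sums moved with the groups, and their part in the results was not tested. The 7 luminal markers did not all move one way. With DHT in shScramble 4 rose and 3 fell at an adjusted p of at most 0.05 (14.4% and 12.6% of all genes). In shTMEFF2 2 rose and 2 fell (7.84% and 5.21%). On the log2 scale KRT8 (1.35) and KRT18 (1.13) rose in shScramble, while FOLH1 fell in shScramble (-0.88) and in shTMEFF2 (-0.38). Library totals ran from 19450866 to 22612046 counts.

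Promoters of the 10 genes were searched for short motifs through which stress signals are known to act, and the 4 matching sites are shown. A gene without a match to these letters in the window is not shown to lack an ATF4 site. RefSeq windows of GRCh38.p14, from 250 bases before to 50 after each start, matched all 10 genes, with 16 windows in all. The C/EBP-ATF response element, bound by ATF4 with a C/EBP partner, was searched on both strands as TGATGNAA. It was found for 3 of the 10 genes, ATF3, ASNS and CHAC1, and in 3.62% of 35116 promoters. For each motif a gene counted if any of its windows matched, while the share of promoters is of single windows, so the units differ. The palindromic cAMP response element TGACGTCA was found for PPP1R15A alone among the 10 and in 1.85% of promoters. The ER stress response element of ATF6 target promoters, a longer motif with a spacer, was searched on both strands too and found in none of the 10 and in 0.0769% of promoters. These motifs do not overlap in the windows shown. In the lines below capitals mark the motif, and each sequence runs 5′ to 3′ on the strand of its gene.
ATF3, chr1:212565205-212565234, plus strand, 191 bases before the RefSeq start and outside the annotated gene: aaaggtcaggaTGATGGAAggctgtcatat
ASNS, chr7:97872458-97872487, minus strand, 68 bases before the RefSeq start and in an exon of a GENCODE transcript: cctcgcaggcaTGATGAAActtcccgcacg
CHAC1, chr15:40953251-40953280, plus strand, 209 bases before the RefSeq start, in an exon of a GENCODE transcript, with the motif on the opposite strand: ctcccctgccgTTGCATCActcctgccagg
PPP1R15A, chr19:48872352-48872381, plus strand, 58 bases before the RefSeq start and in an exon of a GENCODE transcript: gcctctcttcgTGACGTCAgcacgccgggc
A match is a description of the letters in the window and not a measured binding site. The other 6 genes had none of the 3 motifs in these windows.

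Of the 10 genes, 5 passed the test in no comparison. SESN2 was the only member called, which needed both a 1.5-fold change and an adjusted p no higher than 0.05, and it was called in 1 comparison, lower with DHT in shScramble cells. At the same adjusted p and any fold, TRIB3 and ATF3 also rose and DDIT3 fell with DHT in shScramble. With DHT in shTMEFF2, SESN2 and DDIT3 fell, and between the lines PHGDH and SESN2 were higher in shTMEFF2 with DHT present. The genes that passed in no comparison were ATF4, CHAC1, ASNS, PSAT1 and PPP1R15A. Of the 3 genes with a C/EBP-ATF element in the window, ATF3 thus rose in shScramble, and ASNS and CHAC1 passed nowhere.

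**Figure D1:**
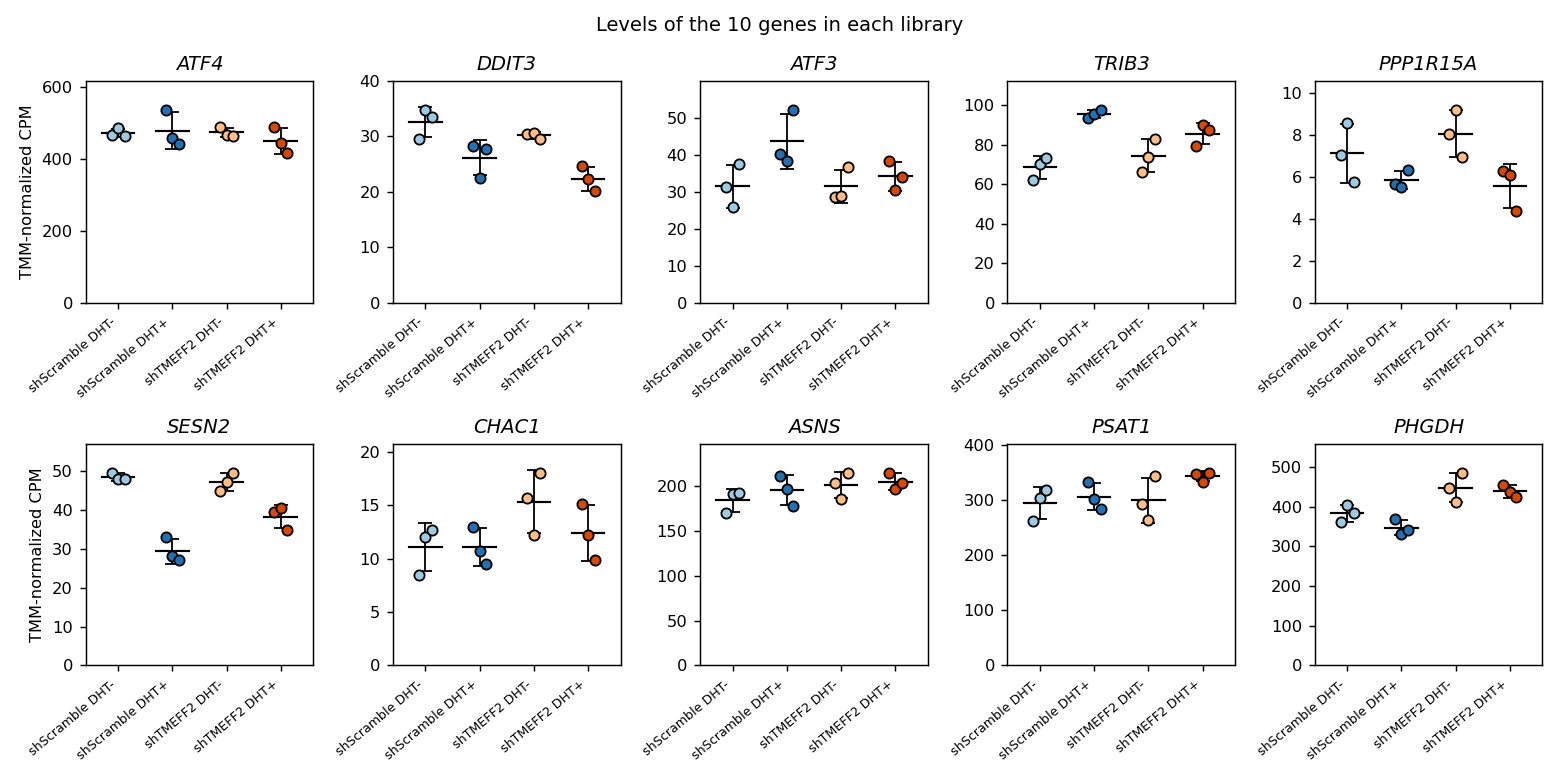
Level of each of the 10 genes in TMM-normalised CPM (vertical axes, starting at 0 and scaled per gene) in the 4 groups, with a point for each library and a line and bar for the mean and SD of 3 libraries. SESN2 falls from a mean of 48.5 to 29.4 CPM with DHT in shScramble, while ATF4 keeps group means of 449 to 478 CPM.

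In shScramble cells, DHT against vehicle gave 1 of the 10 genes called lower and 0 called higher, where 11.9% of all genes tested were called, 5.45% higher and 6.45% lower (quasi-likelihood F-test of edgeR, p-values adjusted by Benjamini and Hochberg's method over 15419 genes). For the 0 called higher, 2 genes were higher at an unadjusted p under 0.05 and DESeq2 also called 0. At an adjusted p of at most 0.05 and any fold, 2 of the 10 rose and 2 fell, and over all genes 14.4% rose and 12.6% fell. The libraries of the 2 treatments did not overlap for 2 genes that were higher (21.3% of all genes) and 2 that were lower (20.5%), and overlapped for 6. The median log2 fold change of the 10 was 0.01 and that of all genes tested -0.01.

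In shTMEFF2 cells the same treatment gave 0 genes called in either direction, against 4.88% of all genes, 3.28% higher and 1.6% lower. Here 1 gene was higher and 3 lower at an unadjusted p under 0.05, and DESeq2 called 0. At any fold 0 rose and 2 fell, against 7.84% and 5.21% of all genes, and the treatments did not overlap for 3 genes, all lower (15.7% of all genes). The median of the 10 was -0.05 and that of all genes -0.02.

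Between the lines, without DHT, 0 of the 10 genes were called (0.571% of all genes, 0.298% higher and 0.272% lower), with 2 higher and 0 lower at an unadjusted p under 0.05 and 0 called by DESeq2, and the libraries of the lines were separate for 1 gene, higher in shTMEFF2 (9.35% of all genes), and for 0 that were lower (9.18%). At any fold 0 passed an adjusted p of 0.05, against 0.623% of all genes higher and 0.493% lower. With DHT 0 were called (6.77% of all genes, 3.03% higher and 3.74% lower), with 2 higher and 1 lower at an unadjusted p under 0.05 and 0 called by DESeq2. At any fold 2 of the 10 were higher in shTMEFF2 with DHT and 0 lower, against 6.93% and 9.09% of all genes, and the lines did not overlap for 3 that were higher (15.5%) and 2 that were lower (17%). The medians of the 10 were 0.07 without and 0.0007 with DHT. The comparisons share libraries, the shScramble DHT+ group for instance entering both the DHT response of shScramble and the comparison of lines with DHT, so their values stand side by side and are not independent. In a direct test of the difference between the DHT responses, shTMEFF2 minus shScramble, 0 of the 10 passed an adjusted p of 0.05 (4.94% of all genes, 1.65% higher and 3.29% lower). In that test 1 gene was higher and 1 lower at an unadjusted p under 0.05, and DESeq2 called 1, SESN2.

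**Figure D2:**
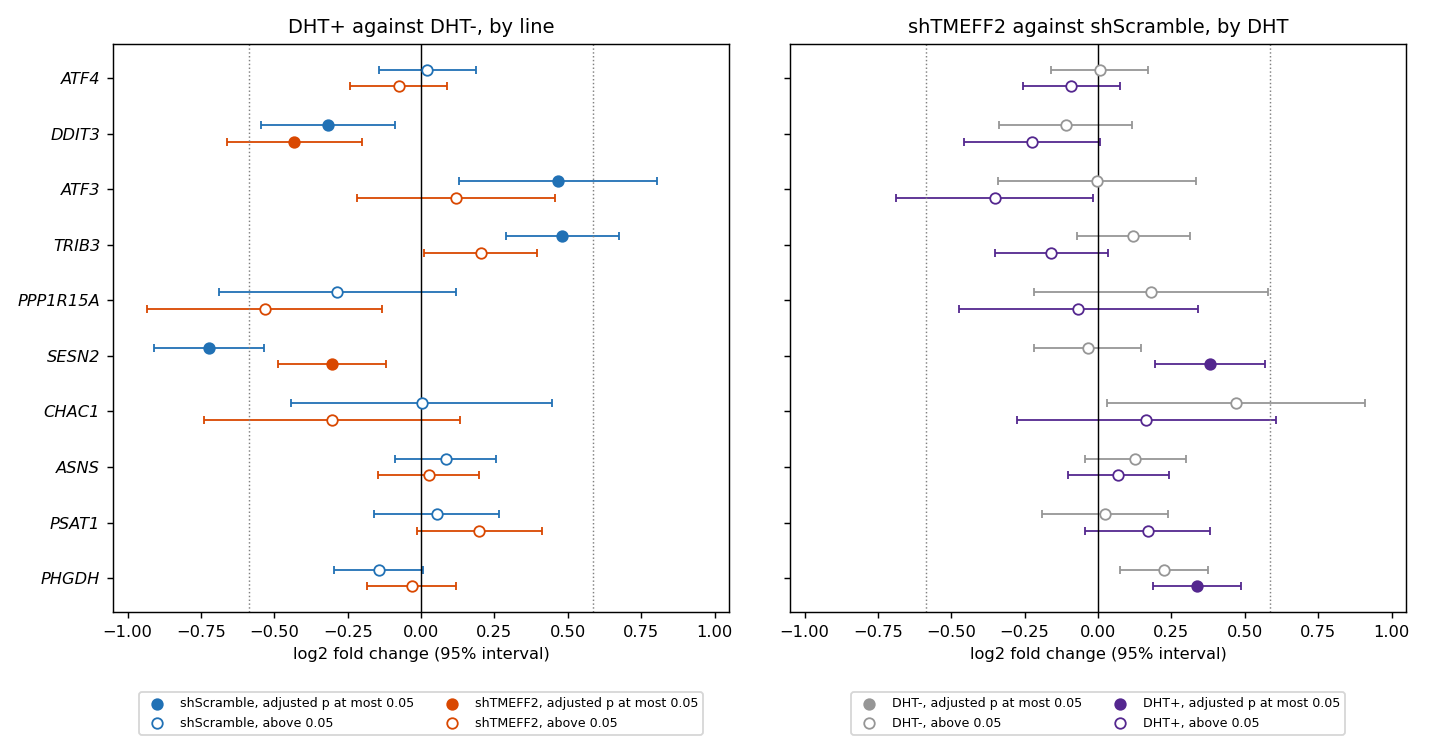
Log2 fold change of each of the 10 genes with its 95% confidence interval, for DHT+ against DHT- in each line and for shTMEFF2 against shScramble at each DHT level. Most intervals cross 0, and SESN2 in shScramble, at -0.72, lies farthest from it.

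Among the 3 transcription factors, ATF4 (chr22:39519695-39522683, plus strand, 3 exons) was the most even. It had 466, 485 and 462 CPM in shScramble DHT-, 536, 458 and 441 in shScramble DHT+, 488, 466 and 465 in shTMEFF2 DHT-, and 489, 442 and 416 in shTMEFF2 DHT+. The groups overlapped in every comparison. With DHT the log2 fold change was 0.02 in shScramble (95% interval -0.14 to 0.19, adjusted p = 0.871) and -0.08 in shTMEFF2 (-0.24 to 0.09, adjusted p = 0.576), and between the lines it was 0.01 without and -0.09 with DHT. Both intervals for DHT lay within a change of 1.5-fold, and each library held at least 8830 counts of ATF4.

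DDIT3 (chr12:57516588-57521737, minus strand, 4 exons) encodes CHOP, the factor that drives cell death when stress is prolonged. Its levels were 29.5, 34.8 and 33.6 CPM in shScramble DHT-, 28.3, 22.5 and 27.7 in shScramble DHT+, 30.4, 30.6 and 29.5 in shTMEFF2 DHT-, and 24.6, 22.3 and 20.2 in shTMEFF2 DHT+. Every DHT+ library lay below every DHT- library of its line. DDIT3 fell by 0.32 on the log2 scale in shScramble (SE 0.106, adjusted p = 0.0416) and by 0.43 in shTMEFF2 (SE 0.106, adjusted p = 0.0188), and the responses of the lines differed by -0.12 (adjusted p = 0.771). In shScramble the adjusted p kept to 0.05 in 10 of 20 alternatives (0.0154 to 0.205), and it was lost without any 1 of 7 libraries, namely shScramble DHT- replicate 2 or 3, shScramble DHT+ replicate 2, any of shTMEFF2 DHT- and shTMEFF2 DHT+ replicate 2, since all groups share 1 estimate of the spread. In shTMEFF2 it passed in 16 of 20 (0.00335 to 0.100) and was lost without shTMEFF2 DHT- replicate 1 or 2 or shTMEFF2 DHT+ replicate 2 or 3. DDIT3 overlaps 4 other annotated genes, among them MARS1 on the opposite strand, whose row (MARS) ran from 141 to 2117 CPM over the libraries. In shTMEFF2 DHT- the MARS row had 526, 415 and 2117 CPM, where DDIT3 had 30.4, 30.6 and 29.5. The mean of MARS was lower with DHT in both lines, as was that of DDIT3. It went from 632 to 321 CPM in shScramble and from 1020 to 534 in shTMEFF2, with overlapping libraries. The part of shared sequence in the DDIT3 values was not tested.

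ATF3 (chr1:212565334-212620777, plus strand, 4 exons), a factor of the same family that is induced quickly by many stresses, had 31.2, 25.9 and 37.5 CPM in shScramble DHT- and 40.2, 38.4 and 52.1 in shScramble DHT+. In shTMEFF2 it had 28.7, 29.0 and 36.6 CPM with vehicle and 38.2, 30.3 and 33.9 with DHT. The 2 treatments were separate in shScramble by a narrow gap and overlapped in shTMEFF2. ATF3 rose by 0.47 in shScramble on the log2 scale (SE 0.155, adjusted p = 0.0415), with adjusted p-values that passed 0.05 in 12 of 20 alternatives (0.00555 to 0.165). The exceptions included leaving out shScramble DHT- replicate 1 or 2, shScramble DHT+ replicate 1 or 3, or shTMEFF2 DHT+ replicate 3. Without shScramble DHT- replicate 3, the library with the highest vehicle value, the log2 fold change was 0.61 and ATF3 was called. In shTMEFF2 the value was 0.12 (adjusted p = 0.682). The direct test of the difference between the responses gave -0.35 (95% interval -0.83 to 0.13, adjusted p = 0.471), so ATF3 is not shown to respond differently in the 2 lines. All 3 shTMEFF2 DHT+ libraries lay below the 3 of shScramble DHT+, at a log2 fold change of -0.35 (95% interval -0.69 to -0.02) that did not pass (adjusted p = 0.149). This difference passed in 1 of 20 alternatives, the replicate number as a block (adjusted p = 0.0392).

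Of the genes that feed back on the response, TRIB3 (chr20:362835-397559, plus strand, 4 exons), a pseudokinase that binds ATF4 and restrains it, had 61.9, 70.1 and 73.3 CPM in shScramble DHT- and 93.5, 95.4 and 97.5 in shScramble DHT+. In shTMEFF2 the levels were 66.2, 73.9 and 82.9 CPM with vehicle and 79.5, 89.9 and 87.2 with DHT. The DHT+ libraries of shScramble were tightly grouped above all others of the 12. TRIB3 rose 1.40-fold in shScramble, 0.48 on the log2 scale (SE 0.0886, adjusted p = 0.0015), under each of 20 alternatives (adjusted p up to 0.0091). In shTMEFF2 the log2 fold change was 0.20 (95% interval 0.01 to 0.39, adjusted p = 0.160). This rise passed in 1 of 20 alternatives, the replicate number as a block (adjusted p = 0.0456). The difference between the responses was -0.28 (95% interval -0.55 to -0.008, adjusted p = 0.268), so TRIB3 is not shown to respond differently in the 2 lines.

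PPP1R15A (chr19:48872212-48876059, plus strand, 3 exons) encodes GADD34, which brings a phosphatase to eIF2 and so ends the translational block. It was low, at 7.05, 8.57 and 5.74 CPM in shScramble DHT-, 5.66, 5.52 and 6.33 in shScramble DHT+, 8.05, 9.19 and 6.95 in shTMEFF2 DHT-, and 6.27, 6.09 and 4.36 in shTMEFF2 DHT+. The 2 treatments overlapped in shScramble and were separate in shTMEFF2. The log2 fold change with DHT was -0.29 in shScramble (adjusted p = 0.288) and -0.53 in shTMEFF2 (95% interval -0.93 to -0.13, adjusted p = 0.0794), and neither passed. It had 98.1 to 208 counts in a library, and its intervals were wider than those of ATF4. The part of low counts in this was not tested.

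SESN2 (chr1:28259518-28282491, plus strand, 10 exons) encodes sestrin 2, a leucine sensor that restrains the growth kinase mTORC1 when amino acids are short. Its levels were 49.5, 48.0 and 47.8 CPM in shScramble DHT-, 33.0, 28.1 and 27.0 in shScramble DHT+, 45.0, 47.2 and 49.6 in shTMEFF2 DHT-, and 39.4, 40.5 and 34.9 in shTMEFF2 DHT+. In order, the group means were 48.5 ± 0.923 CPM (SD, n = 3) in shScramble DHT-, 47.3 ± 2.31 in shTMEFF2 DHT-, 38.3 ± 2.96 in shTMEFF2 DHT+ and 29.4 ± 3.17 in shScramble DHT+, of which only the first 2 overlapped. SESN2 fell with DHT in both lines.

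In shScramble SESN2 fell by 0.72 on the log2 scale, to 0.606 of its vehicle level (SE 0.0860, 95% interval -0.91 to -0.54, adjusted p = 5.63e-05), and the adjusted p stayed at or under 0.05 in each of 20 alternatives. In shTMEFF2 it fell by 0.31, to 0.809 of its vehicle level (SE 0.0848, adjusted p = 0.0332), below 0.05 in 11 of 20 alternatives (0.0146 to 0.170) and above it without shScramble DHT- replicate 3 and without each of the 6 shTMEFF2 libraries in turn. Without DHT the difference between the lines was -0.04, with a 95% interval of -0.22 to 0.15. With DHT SESN2 was higher in shTMEFF2 by 0.38 (SE 0.0861, 95% interval 0.20 to 0.57, adjusted p = 0.00950), and it passed in 19 of 20 alternatives, the exception being the second column of each library alone (adjusted p = 0.0528). The direct test of the difference between the 2 DHT responses gave 0.42 (SE 0.121, 95% interval 0.16 to 0.68, unadjusted p = 0.00437, adjusted p = 0.0702). That difference passed 0.05 in 4 of 19 alternatives, DESeq2 among them with an adjusted p of 0.0234, so whether the fall of SESN2 was smaller in shTMEFF2 depended on the setting.

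CHAC1 (chr15:40952962-40956512, plus strand, 3 exons) encodes an enzyme that breaks down glutathione and is one of the ATF4 targets most sensitive to stress. Its levels were 8.52, 12.1 and 12.7 CPM in shScramble DHT-, 12.996, 10.7 and 9.53 in shScramble DHT+, 15.7, 12.2 and 18.1 in shTMEFF2 DHT-, and 15.2, 12.2 and 9.93 in shTMEFF2 DHT+. Libraries of 1 group differed by as much as the groups did. The log2 fold change with DHT was 0.0017 in shScramble (95% interval -0.44 to 0.45) and -0.30 in shTMEFF2 (-0.74 to 0.13), and that of shTMEFF2 against shScramble without DHT was 0.47 (0.03 to 0.91, adjusted p = 0.330). None passed, and the intervals are wide enough to hold changes of over 1.5-fold in shTMEFF2 that these libraries could not show.

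None of the 3 biosynthetic enzymes passed the test with DHT in either line. ASNS (chr7:97851677-97872542, minus strand, 13 exons), asparagine synthetase, had 169.5, 191.5 and 191.9 CPM in shScramble DHT-, 211, 197 and 178 in shScramble DHT+, 203, 186 and 215 in shTMEFF2 DHT-, and 215, 196 and 204 in shTMEFF2 DHT+. The treatments overlapped within each line, and the lines overlapped with and without DHT. Its log2 fold change with DHT was 0.08 in shScramble (95% interval -0.09 to 0.26, adjusted p = 0.473) and 0.03 in shTMEFF2 (-0.15 to 0.20, adjusted p = 0.877). ASNS overlaps 1 other annotated gene on each strand, and a pseudogene row, ASNSP1, held 54.02 to 100.6 counts against at least 3561 for ASNS.

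PSAT1 (chr9:78297125-78330093, plus strand, 9 exons), the aminotransferase of the second step of serine synthesis, had 262, 305 and 318 CPM in shScramble DHT-, 332, 302 and 284 in shScramble DHT+, 293, 263 and 344 in shTMEFF2 DHT-, and 348, 334 and 350.07 in shTMEFF2 DHT+. The treatments overlapped in both lines, and with DHT all 3 shTMEFF2 libraries were above the 3 of shScramble. The log2 fold change with DHT was 0.05 in shScramble (adjusted p = 0.736) and 0.20 in shTMEFF2 (adjusted p = 0.218), and between the lines with DHT it was 0.17 (adjusted p = 0.285), none of which passed. Without shTMEFF2 DHT- replicate 3, the highest vehicle library of that line, the DHT response of PSAT1 in shTMEFF2 was 0.32 and passed at any fold (adjusted p = 0.0481).

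PHGDH (chr1:119648411-119744218, plus strand, 12 exons), the dehydrogenase that commits carbon from glycolysis to serine, had 362, 405 and 384 CPM in shScramble DHT-, 368, 331 and 342 in shScramble DHT+, 447, 412 and 486 in shTMEFF2 DHT-, and 455, 437 and 424 in shTMEFF2 DHT+. Each of the 6 shTMEFF2 libraries was above each of the 6 shScramble libraries. PHGDH was 1.26-fold higher in shTMEFF2 with DHT, 0.34 on the log2 scale (SE 0.0697, 95% interval 0.19 to 0.49, adjusted p = 0.00571), and adjusted p-values up to 0.0266 over 20 alternatives. Without DHT the value was 0.23 (95% interval 0.07 to 0.38, adjusted p = 0.163), which did not pass. The effect of DHT was -0.14 in shScramble (adjusted p = 0.146) and -0.03 in shTMEFF2 (adjusted p = 0.816). In the direct test these responses differed by 0.11 (adjusted p = 0.637), so the difference between the lines is not shown to depend on DHT. With and without DHT, the difference between the lines was smaller than 1.5-fold.

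Beside the differences between groups, CHAC1, ASNS, PSAT1 and PHGDH varied together among libraries of the same group, a grouping chosen after the values were seen. After each gene's group mean was removed, Pearson's r over the 12 libraries was 0.91 for ASNS with PSAT1, 0.87 for CHAC1 with ASNS and 0.86 for CHAC1 with PHGDH. The 6 pairs of these 4 genes had a median r of 0.85, the other 39 pairs of the 10 genes a median of 0.24 with a range of -0.49 to 0.72, and pairs over all genes a median of 0.0017. All 4 genes were low in shScramble DHT- replicate 1 and shTMEFF2 DHT- replicate 2 and high in shScramble DHT+ replicate 1 and shTMEFF2 DHT- replicate 3. For CHAC1 the log2 deviation from the group mean was -0.36 in shScramble DHT- replicate 1 and 0.31 in shTMEFF2 DHT+ replicate 1. The points share cultures, libraries and depth, and these correlations are a description only.

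**Figure D3:**
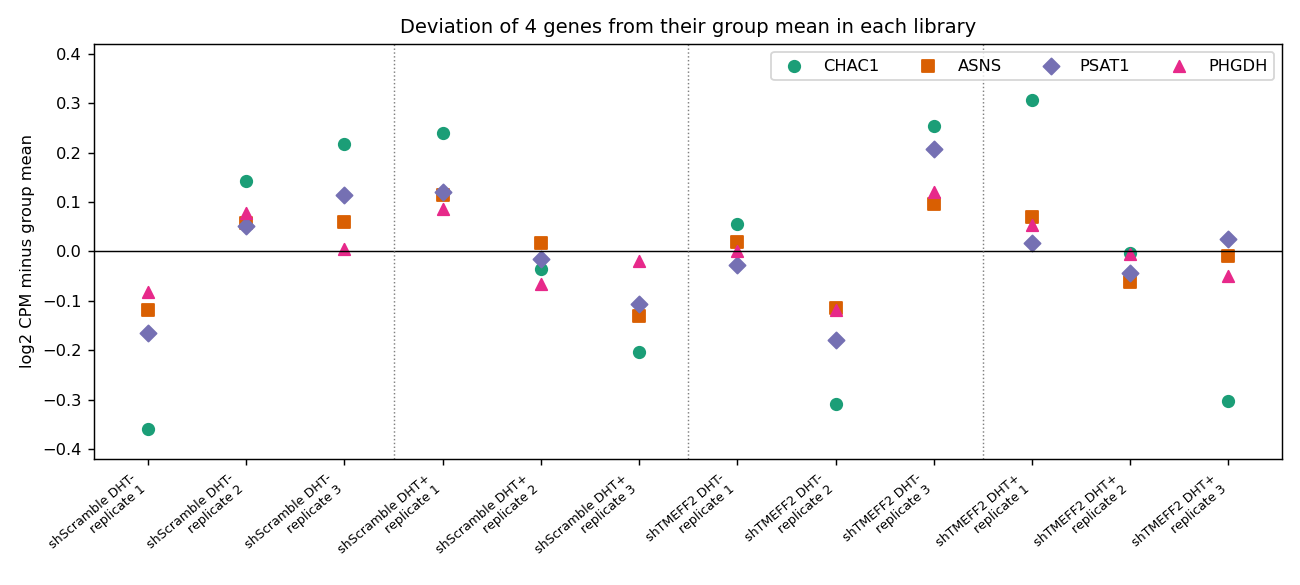
Deviation of CHAC1, ASNS, PSAT1 and PHGDH from their group mean (vertical axis, log2 CPM minus the mean of the 3 libraries of the group) in each of the 12 libraries. The 4 genes tend to fall on the same side of 0 within a library, and CHAC1 spreads most, from -0.36 to 0.31.

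The mean profile of the 10 genes, the average of their standardised log2 CPM in each library, was highest in shTMEFF2 DHT- replicate 3 (0.78) and lowest in shScramble DHT- replicate 1 (-0.66), so libraries of the DHT- groups held both ends. CHAC1 followed it most closely (r = 0.95), then ASNS (0.75) and PHGDH (0.68), while TRIB3 (-0.03) and ATF3 (-0.04) did not follow it. Each of the 10 is itself part of the mean profile, which raises its r, and genes outside the 10 have no such part in it. Outside the 10, among 11146 genes at a mean of at least 5 CPM, the profiles most like it over the 12 libraries were those of POFUT2 (r = 0.86), PLXNA1 (0.82), ARHGEF19 (0.79), JDP2 (0.77) and BANP (0.76). The most opposite were CNOT11 (-0.79), SPRTN (-0.76) and LUC7L2 (-0.76).

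Further genes of the same pathway were read for context. Of 22 other ATF4 targets, 21 were tested. With DHT in shScramble 3 were called higher (5.45% of all genes) and 1 lower (6.45%). At any fold 9 rose (14.4%) and 1 fell (12.6%), with a median log2 fold change of 0.27. Those called were VLDLR, a lipoprotein receptor (0.86, SE 0.135, adjusted p = 0.000486), HERPUD1, a part of the ER degradation machinery that also answers to the other stress arms (0.87, SE 0.165, adjusted p = 0.00184), FAM129A (0.95, SE 0.218, adjusted p = 0.00643) and, lower, KLHL24 (-0.93, SE 0.145, adjusted p = 0.000446). Among the smaller changes were the proline synthesis gene ALDH18A1 (0.40), the alanine transaminase gene GPT2 (0.51) and the mitochondrial folate gene MTHFD2 (0.45).

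In shTMEFF2 the same 21 genes gave 0 called (4.88% of all genes), with 5 higher and 2 lower at an unadjusted p under 0.05 and 0 called by DESeq2. At any fold 3 rose (7.84% of all genes) and 2 fell (5.21%), with a median of 0.10. MTHFD2 rose here too (0.43, adjusted p = 0.0111), as did the translation repressor EIF4EBP1 (0.41), while NUPR1 (-0.42, adjusted p = 0.0243) and KLHL24 (-0.48, adjusted p = 0.0419) fell. Under other settings EIF4EBP1 passed in 15 of 20 repeats (adjusted p up to 0.0878), NUPR1 in 17 (up to 0.0996) and KLHL24 in 10 (up to 0.178). Between the lines with DHT 1 was called higher, KLHL24 (0.72, adjusted p = 0.00483), and 2 lower, VLDLR (-1.08) and HERPUD1 (-1.17). Of all genes 3.03% were called higher and 3.74% lower there. The DHT responses of HERPUD1 (-1.06, adjusted p = 0.0206) and VLDLR (-0.76, adjusted p = 0.0412) passed the direct test of a difference between the lines. That of HERPUD1 passed in 15 of 19 repeats under other settings (adjusted p up to 0.0588, missed without shScramble DHT- replicate 2, shTMEFF2 DHT- replicate 1 or shTMEFF2 DHT+ replicate 2 or 3), and that of VLDLR in 8 of 19 (0.00315 to 0.152, missed without any 1 of 8 libraries).

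Upstream of ATF4, the list of 15 eIF2 kinases, phosphatase subunits and exchange factor genes had 0 called in either line with DHT. In shScramble 7 were higher and 0 lower at an unadjusted p under 0.05, in shTMEFF2 7 and 1, and DESeq2 called 0 in each. Of all genes 11.9% were called in shScramble and 4.88% in shTMEFF2. At any fold 5 rose in shScramble (14.4% of all genes), and 1 rose (7.84%) and 1 fell (5.21%) in shTMEFF2. EIF2S1, the phosphorylated subunit of eIF2, rose in both (0.41 and 0.34), and PPP1R15B, the constitutive partner of the eIF2 phosphatase and paralogue of PPP1R15A, rose in shScramble (0.37, adjusted p = 0.00126) and was lower in shTMEFF2 with DHT (-0.35, adjusted p = 0.00354). EIF2B4, of the exchange factor, fell with DHT in shTMEFF2 (-0.24, adjusted p = 0.0376) and was lower there than in shScramble with DHT (-0.26, adjusted p = 0.0208). Under other settings the first of these passed in 7 of 20 repeats (adjusted p 0.025 to 0.181) and the second in 12 of 20 (0.00994 to 0.138).

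Of 14 other serine, glycine and folate enzymes, 13 were tested, and 0 were called in any comparison of groups in the main fit. Of all genes 11.9% were called with DHT in shScramble and 4.88% in shTMEFF2. Between the lines the shares were 0.571% without and 6.77% with DHT. The list overlaps that of other ATF4 targets, with MTHFD2 in both, so the counts of these lists are not separate. With DHT 5 rose (14.4% of all genes) and 2 fell (12.6%) in shScramble, at an adjusted p of at most 0.05. In shTMEFF2 4 rose (7.84%) and 1 fell (5.21%). At an unadjusted p under 0.05 these counts were 5 and 2 in shScramble and 5 and 3 in shTMEFF2, between the lines they were 2 and 1 without and 3 and 4 with DHT, and DESeq2 called 0 in each. GCSH, of the glycine cleavage system, rose in both lines (0.54 and 0.44). MTHFD1, of the cytosolic folate cycle, rose in both lines too (0.33, adjusted p = 0.0252, and 0.51, adjusted p = 0.00521). GLDC, the decarboxylase of glycine cleavage, fell in shScramble (-0.37, adjusted p = 0.0251) and was higher in shTMEFF2 with DHT (0.56, SE 0.108, adjusted p = 0.00376), where GCSH was lower (-0.38). Under other settings the fall of GLDC passed in 15 of 20 repeats (adjusted p up to 0.196). Its difference between the lines with DHT was called in 6 of 20 repeats, and the rise of MTHFD1 in shTMEFF2 in 2 of 20. Members of this pathway thus moved both ways, with medians of 0.06 and 0.05.

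The 20 cytosolic aminoacyl-tRNA synthetase genes, which charge tRNAs and include known ATF4 targets, had 0 called with DHT (11 higher and 0 lower at an unadjusted p under 0.05 in shScramble, 3 and 0 in shTMEFF2, 0 by DESeq2). Of all genes 11.9% were called in shScramble and 4.88% in shTMEFF2. At any fold 7 rose in shScramble (14.4% of all genes) and 2 in shTMEFF2 (7.84%), FARSB (0.52 and 0.43) and IARS (0.37 and 0.27) in both. DARS was lower in shTMEFF2 with DHT (-0.34), in 12 of 20 repeats under other settings. The 13 immediate early genes tested, which answer to fresh growth and stress signals as ATF3 does, gave 1 called higher in shScramble, KLF6 (0.81), against 5.45% of all genes. In shTMEFF2 1 was called lower, EGR1 (-1.34), against 1.6% of all genes. EGR1 was near the floor, with 17.6 to 35.4 counts in a library of shTMEFF2 DHT- and 9.96 to 12.8 in shTMEFF2 DHT+. DESeq2 gave no adjusted p for EGR1 in shTMEFF2, and under the other settings its call was kept in 11 of 17 repeats (adjusted p 0.0241 to 0.123), missed without shTMEFF2 DHT- replicate 1 or 3 or shTMEFF2 DHT+ replicate 2 or 3. JUNB passed the test in shTMEFF2 too (-0.56), but in 8 of 20 repeats only (0.00975 to 0.192), and KLF6 was lower in shTMEFF2 with DHT (-0.67).

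The IRE1 and ATF6 arms of the unfolded protein response, which run beside the ATF4 arm from the endoplasmic reticulum, gave other counts. Of 17 genes 11 were called higher with DHT in shScramble (5.45% of all genes) and 16 rose at any fold (14.4%). Their median log2 fold change was 0.74, beside 0.01 for the 10 ATF4 genes. In shTMEFF2 0 were called (4.88% of all genes) and 0 passed at any fold (7.84% higher and 5.21% lower), with a median of 0.004. There 1 was higher and 0 lower at an unadjusted p under 0.05, and DESeq2 called 0. Between the lines with DHT 15 were called lower (3.74% of all genes), with a median of -0.94, beside 0.0007 for the 10. In the direct test of the DHT response 14 of the 17 passed, all lower in shTMEFF2 minus shScramble (3.29% of all genes), with a median of -0.77. DNAJB9 (1.30) and DNAJC3 (0.93), chaperones of the endoplasmic reticulum, were among those that rose in shScramble. The lists were compared by these counts and medians only.

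**Figure D4:**
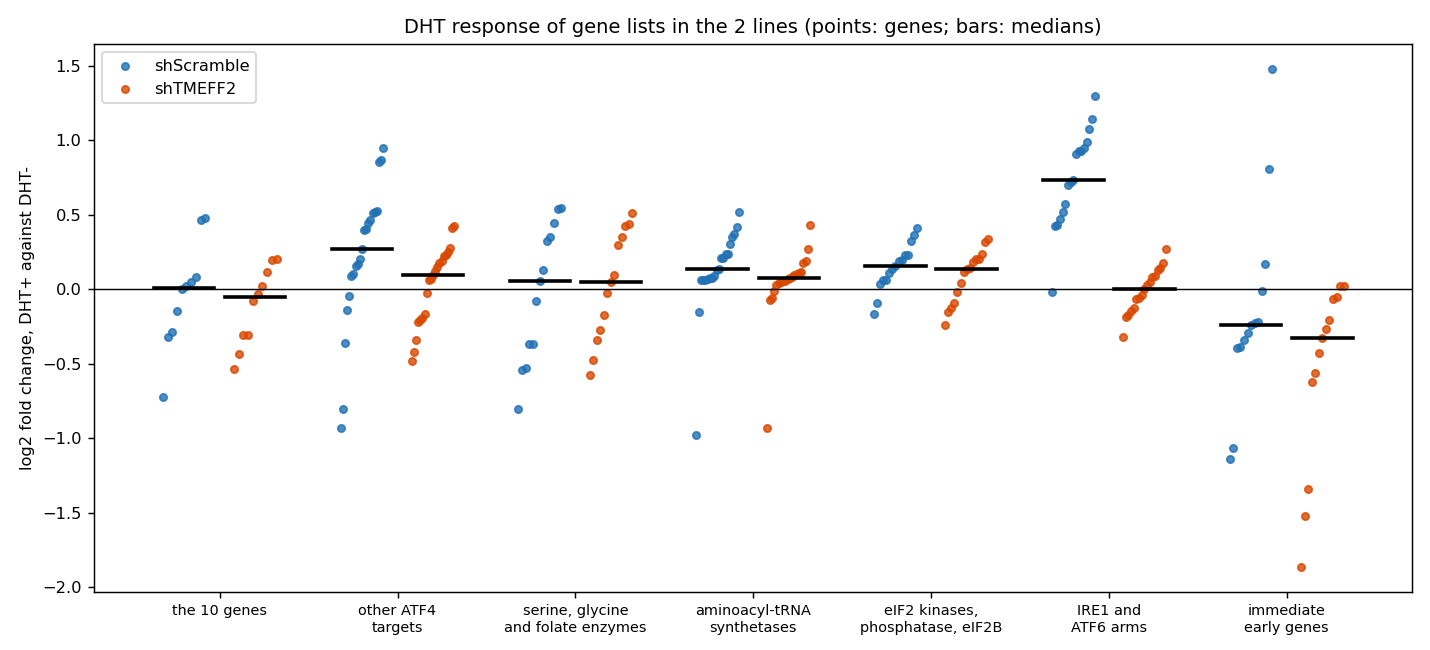
Log2 fold change of DHT+ against DHT- for the tested genes of 7 lists (points, one per gene) in shScramble and shTMEFF2, with a bar at each list's median. The 10 genes have medians of 0.01 and -0.05, and the IRE1 and ATF6 arms medians of 0.74 and 0.004.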

How the data were processed

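RNA-seq was analysed for 12 libraries of LNCaP cells (75 bp paired-end reads, 4 groups of 3, grouped by their labels). The authors trimmed reads with Trimmomatic to at least 15 bp and quantified transcripts with kallisto 0.42.3 on GRCh38, and they deposited estimated counts per gene, scaled to the library's size and to the mean length of the gene's transcripts, so these expected counts need not be whole and strand is not carried. The table holds 24 columns, 2 for each library and 0 of no library. The columns of a library differed less (median chi-square ratio per gene 2.48 to 2.76) than replicates did (4.07 to 5.04). The labels do not say what the 2 columns are. They were assumed to be repeat runs of 1 sample and summed, which these ratios do not settle.

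Sums were rounded to whole numbers and fitted in R 4.3.3 with edgeR 4.0.16 (TMM, filterByExpr with a minimum count of 10 and minimum total of 15, 1 mean per group over all 12 libraries, quasi-likelihood test, Benjamini-Hochberg over 15419 genes). Depth was 19450866 to 22612046 counts per library, and the common biological coefficient of variation 0.131. Calls needed a 1.5-fold change or more together with an adjusted p no higher than 0.05, and a difference between responses at that adjusted p. "Rose" and "fell" are used at that adjusted p at any fold.

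The study's own test was DESeq2, and DESeq2 1.42.0 was an alternative here, beside library size only, a mean above 5 CPM, no filter, the 6 libraries of a comparison, the replicate number as a block, either column of each library alone and each library left out. The 10 genes and the other lists were chosen with earlier results of these data known. All 10 genes are named, and of each other list up to 2 genes with the smallest p per direction and comparison among those at an adjusted p of at most 0.05, and every gene where 5 or fewer were called. Some results that this rule covers are not reported here. Likeness was Pearson's r with the mean standardised profile. The test was checked on simulated counts with changes in shScramble DHT+ only (15219 genes). In it 67 well-counted genes changed 1.5-fold, 67 changed 2-fold and 66 changed 3-fold, a smaller share than passed in the data. Of these, in order, 31.3%, 88.1% and 97% were called (56.7%, 88.1% and 97% by the adjusted p alone). There were 6 wrong calls (9 by the adjusted p alone) among 15019 unchanged genes. These rates need not hold for the data. Replicate numbers were checked for pairing. Same-numbered libraries deviated together only weakly, by r of -0.0017 to 0.169, although 12 of 12 libraries were closest to their own number. The number was left out of the main fit and used as a block in an alternative. Gene positions are from GENCODE 44 on GRCh38, and promoters from RefSeq on GRCh38.p14.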

Additional observations from a re-analysis of the deposited data

Results flagged for a closer look

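The direct test of the DHT response, shTMEFF2 minus shScramble, passed an adjusted p of 0.05 for none of the 10 genes and for 10 genes named from the other lists (edgeR's quasi-likelihood test). In the IRE1 and ATF6 list 14 of 17 genes passed, all lower (3.29% of all genes), with a median log2 difference of -0.77, and 3 of them are given as examples. The difference was -1.36 for DNAJB9 (SE 0.18, adjusted p = 0.00112), -0.84 for DNAJC3 (SE 0.125, adjusted p = 0.00219) and -0.42 for EDEM1 (SE 0.104, adjusted p = 0.0355). Among other ATF4 targets it was -1.06 for HERPUD1 (SE 0.233, adjusted p = 0.0206) and -0.76 for VLDLR (SE 0.193, adjusted p = 0.0412). EIF2B4, of the eIF2 exchange factor, had -0.43 (SE 0.0963, adjusted p = 0.0233) and the immediate early gene KLF6 -0.79 (SE 0.185, adjusted p = 0.029). Of the luminal markers, KRT8 had -1.49 (SE 0.127, adjusted p = 8.37e-05), KRT18 -1.07 (SE 0.0955, adjusted p = 8.59e-05) and FOLH1 0.50 (SE 0.0637, adjusted p = 0.000873). FOLH1 fell with DHT in both lines, by less in shTMEFF2 (-0.38) than in shScramble (-0.88). With 1 setting changed at a time, the differences of DNAJB9, DNAJC3, KRT8, KRT18 and FOLH1 passed in 19 of 19 repeats. HERPUD1 passed in 15 (adjusted p up to 0.0588) and was missed without shScramble DHT- replicate 2, shTMEFF2 DHT- replicate 1 or shTMEFF2 DHT+ replicate 2 or 3. EIF2B4 passed in 9 (0.00382 to 0.152), KLF6 in 9 (0.00303 to 0.242), VLDLR in 8 (0.00315 to 0.152) and EDEM1 in 6 (0.00722 to 0.638), and were missed without any 1 of 7, 8, 8 and 10 libraries.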

How the results depend on the processing

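Of 297 repeats of the counts of members called and of their medians, 290 stayed within their limits and 7 moved. In the difference of the DHT responses 1 member, SESN2, was called with DESeq2, with library size only, with a mean above 5 CPM and without shScramble DHT+ replicate 1 (range 0 to 1 over libraries left out). The members called higher with DHT in shScramble ranged from 0 to 1, with ATF3 called without shScramble DHT- replicate 3, and their median from -0.10 (without shScramble DHT+ replicate 1) to 0.088. Of 990 repeats of single fold changes of the members, 944 kept direction and call, 0 lost and 5 gained the call and 41 turned direction, all of values near 0. In shScramble with DHT, ATF4 was -0.049 and PSAT1 -0.018 with library size only, ATF4 was -0.0018 above 5 CPM, and CHAC1 was -0.070 with library size only, -0.021 above 5 CPM, -0.0015 unfiltered, -0.0068 with the replicate block, -0.00088 in its 6 libraries and -0.060 from the second column. Between the lines without DHT, ATF4 was -0.0034 with library size only and -0.011 from the first column, and ATF3 0.0032 with the replicate block and 0.017 from the first column. With DHT, PPP1R15A was 0.081 from the second column. For the difference of responses DDIT3 was 0.0055 from the second column, ASNS 0.0098 with library size only and TMEFF2 -0.053 from the first column. With a library left out, the log2 fold change with DHT in shScramble ranged from -0.071 to 0.076 for ATF4, -0.16 to 0.12 for CHAC1 and -0.025 to 0.11 for PSAT1, and in shTMEFF2 from -0.029 to 0.082 for ASNS and -0.089 to 0.038 for PHGDH. Between the lines it ranged without DHT from -0.018 to 0.026 for ATF4, -0.080 to 0.11 for PSAT1 and -0.13 to 0.14 for ATF3, and with DHT from -0.16 to 0.0066 for ATF4, -0.0031 to 0.32 for CHAC1 and -0.16 to 0.095 for PPP1R15A. For the difference of responses the ranges were -0.16 to 0.00099 for ATF4, -0.12 to 0.0085 for ASNS and -0.23 to 0.25 for TMEFF2. Same-numbered libraries deviated together by r of -0.0017 to 0.169, under 0.1 for some pairs, although 12 of 12 libraries were closest to their own number. The block brought TRIB3 with DHT in shTMEFF2 to an adjusted p of 0.0456 and ATF3 between the lines with DHT to 0.0392, and in the comparison of lines without DHT took the calls over all genes from 46 higher and 42 lower to 73 and 71 (97 and 83 with DESeq2, 88 and 69 unfiltered). Its counts fell to 27 and 19 in the 6 libraries alone and to 20 and 26 or 27 and 23 from 1 column, and with 1 library left out ran from 14 (without shScramble DHT- replicate 1) to 73 higher (without shTMEFF2 DHT- replicate 3) and from 17 (without shTMEFF2 DHT- replicate 2) to 44 lower. With DHT in shTMEFF2, 247 called lower became 103 without shTMEFF2 DHT+ replicate 3, and in shScramble 995 became 653 above 5 CPM. With library size only, calls over all genes went from 467 higher and 577 lower to 624 and 470 between the lines with DHT, and from 254 and 507 to 370 and 398 for the difference of responses, whose higher calls ran from 127 (without shScramble DHT- replicate 2) to 475 (DESeq2). The cause of these shifts was not tested. PPP1R15A had 98.1 to 208 counts in a library and CHAC1 188 to 390, and the part of low counts in their wide intervals was not tested.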
